A study of Mus musculus with 6 samples.

Results

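The 9 genes described here are Cidea, Cox7a1, Cox8b, Slc27a2, Kcnk3, Otop1, Eva1a, Tmem26 and Tbx1, a set of beige adipocyte marker genes other than Ucp1, the uncoupling protein by which these cells make heat. They were taken by name, with earlier results of these data known, and all 9 were found among the 16627 genes of the table. RNA had been sequenced from inguinal white adipose tissue, the fat pad under the skin of the mouse groin. The animals came from 2 groups, adipocyte-specific Celf1 knockout mice (Celf1 AKO) and Celf1 fl/fl controls (Flox control), whose Celf1 gene carries the sites for excision but is intact, and the knockouts carry the same floxed alleles. Both groups had been kept at 4 °C for 6 hours, so a gene's difference is one between genotypes in the cold and not a response to cold. Each group had 3 libraries, numbered 1 to 3. The Cre driver, the animals' age and sex and the number of animals are not given in any source used here. The p-values therefore measure the spread between these libraries, which may or may not be separate animals.

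Beige adipocytes are fat cells of white depots that gain mitochondria, small lipid droplets and Ucp1 when sympathetic nerves release noradrenaline onto them in the cold. Their marker genes do not all have the same role. Some belong to the heat-producing and oxidative machinery that beige cells share with brown fat, some act on membrane potential or ions, and some were picked mainly because they set beige cells or their precursors apart from other fat cells. Celf1 encodes an RNA-binding protein that acts on the splicing, translation and decay of messenger RNAs, and the series asked about its part in beiging of inguinal fat.

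The libraries held between 54835348 and 64979443 counts, and 16366 genes were tested. Celf1 itself was measured at 49.8 to 63.0 CPM (read counts scaled to library size) in the knockout libraries and at 114 to 144 CPM in the controls, with no overlap. The label of tissue was met by the adipocyte genes: Adipoq, which encodes the fat cell hormone adiponectin, had 2704 ± 102 CPM in the knockout libraries against 2485 ± 70.8 CPM in the controls (SD over 3 libraries). The sum of 14 mature adipocyte markers ran from 69481 to 83764 CPM in Celf1 AKO and from 74271 to 85236 CPM in Flox control. One library stood apart. In Celf1 AKO 3, Acta1, the actin of skeletal muscle, was at 1039 CPM against 23.1 to 75.2 CPM in the other 5 libraries. Of 15 skeletal muscle markers only Acta1 and Mb, the muscle oxygen carrier myoglobin, were among the genes with deposited counts. Why the others are absent is not known here. Mb did not pass the expression filter of edgeR on all libraries, so of the 15 only Acta1 was tested there. Mb was at 1.18 CPM in Celf1 AKO 3 and at 0.0590 to 0.245 CPM elsewhere. Jph2 and Smpx, 2 further muscle genes named after their values were seen, were at 36.4 and 7.25 CPM in Celf1 AKO 3 and at no more than 4.79 and 0.473 CPM elsewhere. The log2 fold change of each marker is therefore given with and without Celf1 AKO 3.

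As a set, the beige markers were mostly lower in the knockout, by very unequal amounts. The 9 were chosen with earlier results known, so the shares of all genes given here describe the set and do not test it. The log2 fold change of Celf1 AKO over Flox control was negative for 7 of the 9 genes and positive for 2, Eva1a and Tmem26. Eva1a is counted as listed, although the beige marker Eva1 is Mpzl2, at -0.38 and described below. The median over the 9 was -0.69, against -0.02 over all genes tested. That median was -0.80 without Celf1 AKO 3 and -1.15 without Celf1 AKO 1, the library in which most of the markers were highest among the knockouts. None of the 9 passed an adjusted p of 0.05 in edgeR's quasi-likelihood test, where 0.0% of all genes were called lower and 0.0122% higher, and their adjusted p ran from 0.227 to 0.991. At an unadjusted p under 0.05, 4 of the 9 were lower (Slc27a2, Cox7a1, Cidea and Tbx1), as were 6.17% of all genes, and 0 were higher, against 6.75% of all genes. These same 4 were the ones whose CPM ranges did not overlap between the groups, with every knockout library below every control. Such a separation towards lower values was seen for 9.51% of all genes, and none of the 9 was separated towards higher values. DESeq2 on all 6 libraries called Slc27a2 and Cox7a1 lower (adjusted p = 0.000117 and 0.0315) and 0 of the 9 higher, with 0.926% of all genes called lower and 2.12% higher. Without Celf1 AKO 3, edgeR called Kcnk3 alone of the 9 lower, where 1.76% of all genes were called lower and 1.43% higher. In bulk tissue, fewer beige cells and less RNA of these genes per cell cannot be told apart.

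**Figure D1:**
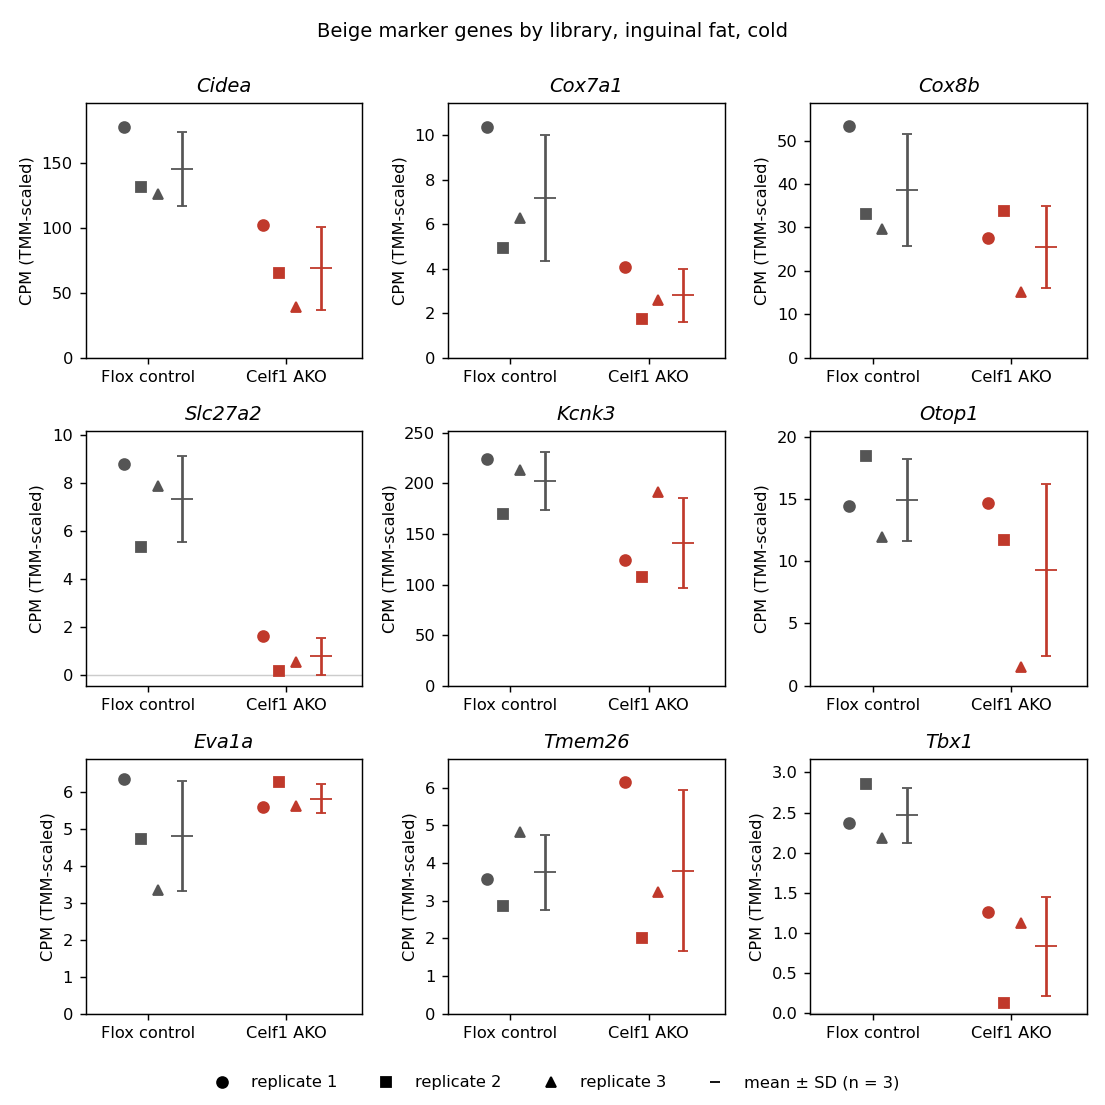
CPM of the 9 beige marker genes in each library, 1 panel per gene on its own linear axis, with 1 point for each of the 3 Flox control and 3 Celf1 AKO libraries, shaped by replicate number, and the mean ± SD of each group (n = 3) beside them. Knockout and control points do not overlap for Cidea, Cox7a1, Slc27a2 and Tbx1, while the Otop1 mean is set by Celf1 AKO 3 at 1.49 CPM and the points of Eva1a and Tmem26 mingle.

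The markers differed widely in abundance. Compared per length, as FPKM (fragments scaled to transcript length and library size), the controls held Cidea at 124 ± 16.5 and Cox8b at 106 ± 28.3, whose ranges overlapped. Below them came Kcnk3 at 53.0 ± 5.88 and Cox7a1 at 19.5 ± 6.42 FPKM. Ucp1 stood above all 9 at 311 ± 48.8 FPKM. The remaining 5 were at a few FPKM or less: Otop1 at 4.76 ± 1.17, Eva1a at 2.69 ± 0.70, Slc27a2 at 2.50 ± 0.52, Tbx1 at 1.40 ± 0.24 and Tmem26 at 0.75 ± 0.21 FPKM (SD, n = 3 libraries for each value). In this order the only neighbours whose ranges overlapped were Cidea with Cox8b and Eva1a with Slc27a2. In the knockout libraries the order was less distinct. Cox8b at 69.1 ± 23.0, Cidea at 58.3 ± 26.9, Kcnk3 at 37.1 ± 13.4 and Ucp1 at 24.2 ± 22.9 FPKM each overlapped the next, and of all neighbours only Cox7a1 at 7.71 ± 3.38 FPKM lay clear of the one below it, Eva1a at 3.26 ± 0.09 FPKM. Slc27a2, at 0.27 ± 0.26 FPKM, was the lowest of the 9 in the knockout libraries.

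Cidea encodes a protein of the lipid droplet surface that brings droplets into contact and is a classical marker of brown and beige fat. The gene (ENSMUSG00000024526) lies on the plus strand of chromosome 18, 67343604 to 67367785, in GRCm38, and is protein-coding like the other 8. Its level was 102, 65.4 and 38.6 CPM in Celf1 AKO 1, 2 and 3 and 178, 131 and 126 CPM in Flox control 1, 2 and 3. All 3 knockout libraries thus lay below the lowest control, with the lowest value in Celf1 AKO 3, the library with muscle RNA. The means were 68.5 ± 31.6 and 145 ± 28.5 CPM, so that Celf1 AKO held 47.3% of the control level. This was a log2 fold change of -1.08 with an SE of 0.33 (edgeR adjusted p = 0.299), or of -0.80 with an SE of 0.24 (adjusted p = 0.112) without Celf1 AKO 3. Its paralog Cidec, the main droplet fusion protein of white fat cells, was far more abundant, at 3196 ± 984 FPKM in Celf1 AKO and 3408 ± 148 FPKM in Flox control, and its log2 fold change was -0.09 (SE 0.21, edgeR adjusted p = 0.893), and -0.31 without Celf1 AKO 3 (adjusted p = 0.375).

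Cox7a1 and Cox8b encode small nuclear-encoded subunits of cytochrome c oxidase, the last enzyme of the mitochondrial respiratory chain. Each is the isoform of heart, skeletal muscle and brown fat, and each has a counterpart in most other tissues, Cox7a2 and Cox8a. Cox7a1 (ENSMUSG00000074218; chromosome 7, 30184144 to 30186078, plus strand) was at 4.08, 1.72 and 2.61 CPM in the knockout libraries and at 10.4, 4.91 and 6.29 CPM in the controls. The knockout libraries were again all below the controls, and Flox control 1 was well above the other controls. Celf1 AKO held 39.0% of the control mean (2.80 ± 1.19 against 7.19 ± 2.83 CPM), a log2 fold change of -1.36 (SE 0.40) with an adjusted p of 0.289 in edgeR, and of -1.31 (SE 0.47, adjusted p = 0.160) without Celf1 AKO 3.

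Cox8b (ENSMUSG00000025488; chromosome 7, 140898945 to 140900446, minus strand) was at 27.5, 33.7 and 15.1 CPM in Celf1 AKO and at 53.4, 33.1 and 29.5 CPM in Flox control. The groups overlapped: Celf1 AKO 2 lay above 2 of the 3 controls. The log2 fold change was -0.60 (SE 0.33, edgeR adjusted p = 0.475) and was smaller, -0.34 (SE 0.27, adjusted p = 0.498), without Celf1 AKO 3. It was also smaller, -0.30, without Flox control 1. Muscle uses both isoforms. In Celf1 AKO 3, the library with muscle RNA, Cox8b had its lowest value, and Cox7a1 lay between the other 2 knockout libraries. The part of muscle RNA in these levels was not tested.

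A ratio of the isoforms within a library needs no scaling between libraries. The FPKM of Cox7a1 was 5.86%, 2.64% and 4.69% of that of Cox7a2 in Celf1 AKO 1, 2 and 3, and 12.7%, 8.20% and 10.2% in Flox control 1, 2 and 3. In both genotypes Cox7a2 was thus the main isoform, and the share of Cox7a1 was lower in every knockout library than in every control. The log2 of the count ratio was lower by 1.29 in Celf1 AKO, a ratio at 0.408 of the control, and the exact two-sided permutation test gave p = 0.1, its lower limit with 3 libraries a side. Without Celf1 AKO 3 the difference was -1.38. Cox8b was at 11.1%, 12.05% and 7.10% of Cox8a in Celf1 AKO and at 17.6%, 14.4% and 13.6% in Flox control. These shares did not overlap either, although the CPM of Cox8b did, since Cox8a was also highest in Celf1 AKO 2 among the knockouts and in Flox control 1 among the controls. The ratio in Celf1 AKO was 0.653 of the control, a log2 difference of -0.62 (exact permutation p = 0.1), and of -0.38 without Celf1 AKO 3. The common isoforms themselves differed little: the log2 fold change was -0.09 (SE 0.16) for Cox7a2 and -0.02 (SE 0.17) for Cox8a, with adjusted p of 0.839 and 0.966 in edgeR. Without Celf1 AKO 3 these were -0.01 and 0.07.

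**Figure D2:**
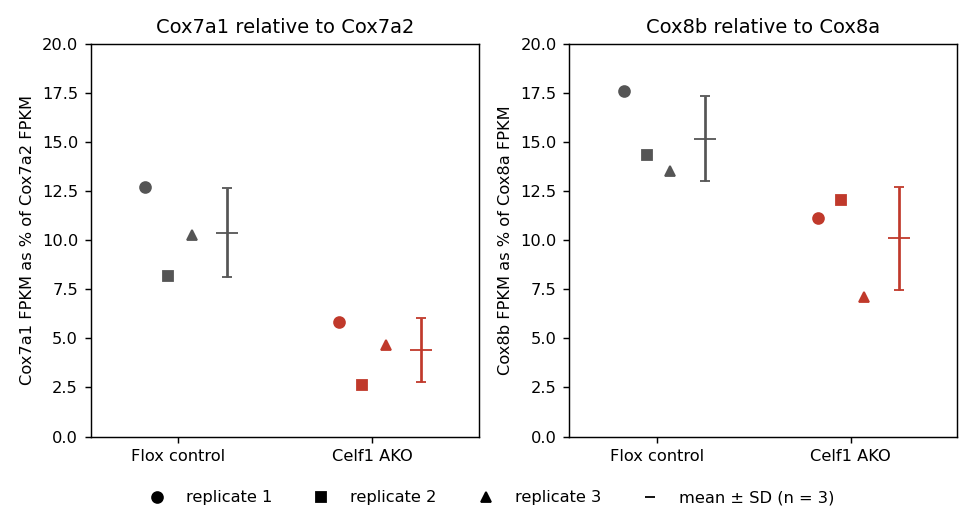
FPKM of Cox7a1 as a percentage of Cox7a2 and of Cox8b as a percentage of Cox8a in each library, on linear axes, with 1 point per library, shaped by replicate number, and the mean ± SD of each group (n = 3). In both panels the 3 Celf1 AKO points lie below the 3 Flox control points, from 2.64% to 5.86% against 8.20% to 12.7% for Cox7a1 and from 7.10% to 12.05% against 13.6% to 17.6% for Cox8b.

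The rest of the enzyme was described from a list of 15 nuclear-encoded subunit genes that includes both. Of these, 14 had a negative and 1 a positive log2 fold change, with a median of -0.22, and 13 of 15 were negative, with a median of -0.12, without Celf1 AKO 3. The list's mean log2(CPM + 0.5), less its control mean, was -0.14, -0.16 and -0.47 in Celf1 AKO 1, 2 and 3. In Flox control 1, 2 and 3 it was 0.26, -0.11 and -0.16. Celf1 AKO 1 and 2 thus lay near Flox control 2 and 3, with Flox control 1 above and Celf1 AKO 3 below. None was called by edgeR with or without that library. At an unadjusted p under 0.05, 3 were lower, where 6.17% of all genes were, and 1 was lower without Celf1 AKO 3. The groups did not overlap, with lower knockout values, for 4 of them, where 9.51% of all genes did so: Cox7a1, Cox5a and, named after their values were seen, Cox7b and Cox6b2. Cox5a, a core nuclear subunit, had 79.4 ± 6.67 CPM in the knockout against 103 ± 16.3 CPM in the controls, a log2 fold change of -0.38 (edgeR adjusted p = 0.337), and of -0.32 without Celf1 AKO 3. The isoform genes of beige fat thus lay further from 0 than the list's median.

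The stretches of DNA before the starts of the isoform genes are shown because they make the pairs visibly different in CG dinucleotides, the sites of DNA methylation that cluster in the promoters of widely expressed genes. They come from RefSeq on GRCm38.p6, end at the base before the gene's first base in GENCODE, and read 5′ to 3′ on the gene's strand, with CG in capitals. Their positions are chr7:30183921-30184143 (plus) for Cox7a1, chr9:79759879-79760103 (minus) for Cox7a2, chr7:140900447-140900696 (minus) for Cox8b and chr19:7217617-7217866 (minus) for Cox8a.
Cox7a1: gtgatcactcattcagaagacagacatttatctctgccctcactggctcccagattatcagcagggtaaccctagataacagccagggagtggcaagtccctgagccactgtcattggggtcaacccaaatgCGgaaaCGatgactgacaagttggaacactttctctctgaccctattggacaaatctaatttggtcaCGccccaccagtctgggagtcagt
Cox7a2: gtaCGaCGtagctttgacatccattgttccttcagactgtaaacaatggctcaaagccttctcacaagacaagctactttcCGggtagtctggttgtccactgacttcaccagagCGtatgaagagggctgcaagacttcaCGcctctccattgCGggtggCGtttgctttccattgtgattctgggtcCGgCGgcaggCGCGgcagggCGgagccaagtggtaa
Cox8b: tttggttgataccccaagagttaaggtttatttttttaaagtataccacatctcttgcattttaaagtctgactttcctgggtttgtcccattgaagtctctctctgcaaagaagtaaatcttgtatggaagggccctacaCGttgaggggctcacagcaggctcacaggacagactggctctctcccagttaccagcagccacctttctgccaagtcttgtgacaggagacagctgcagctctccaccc
Cox8a: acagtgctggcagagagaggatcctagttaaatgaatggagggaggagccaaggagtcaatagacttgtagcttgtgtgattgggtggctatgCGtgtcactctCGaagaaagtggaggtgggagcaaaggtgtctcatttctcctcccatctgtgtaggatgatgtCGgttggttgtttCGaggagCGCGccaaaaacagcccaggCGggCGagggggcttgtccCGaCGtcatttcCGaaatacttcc
The Cox7a1 stretch holds 3 CG in 223 bases and that of Cox7a2 holds 12 in 225. The Cox8b stretch holds 1 CG in 250 bases and that of Cox8a 11 in 250. In RefSeq windows of 300 bases (250 before and 50 after a start), the counts were 7 for Cox7a1, 2 for Cox8b, 20 for Cox7a2 and 19 for Cox8a, against a median of 7 over 32851 such windows, with quartiles of 3 and 20.

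Windows of this kind were found for 7 of the 9 markers, Tbx1 with 2 of them. Slc27a2, Otop1, Eva1a and Tbx1 had 16 to 26 CG per window, and Tmem26 had 9. Letters of known motifs were searched on both strands. The GC box GGGCGG was present in windows of Slc27a2, Otop1, Eva1a, Tmem26 and Tbx1, as in 35.7% of all windows, and CCAAT was present in the window of Cox7a1, as in 37.4%. The nuclear receptor half-site AGGTCA was in that of Slc27a2 only, as in 16.3% of all windows, and the cyclic AMP element half-site TGACG was in both of Tbx1, as in 20.8%. TATAAA was in that of Cox8b, just after the start, as in 13.6%. The extended ERR half-site TCAAGGTCA (which contains AGGTCA), the DR1 nuclear receptor repeat (a pair of AGGTCA with 1 base between), the full cyclic AMP element TGACGTCA (which contains TGACG), the EBF core and the NRF1 core were in none of the 8 windows and in 0.423%, 0.0396%, 1.79%, 0.904% and 0.971% of all windows.

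Slc27a2 encodes a fatty acid transport protein that is also a very long-chain acyl-CoA synthetase of peroxisomes and the endoplasmic reticulum. The gene (ENSMUSG00000027359; chromosome 2, 126552407 to 126588243, plus strand) showed the largest fold difference of the 9. It was at 1.64, 0.164 and 0.569 CPM in Celf1 AKO and at 8.78, 5.34 and 7.90 CPM in Flox control. All knockout libraries were several-fold below the lowest control. The raw counts were 90, 10 and 37 in Celf1 AKO and 512, 362 and 516 in Flox control, and the exact 95% Poisson interval of the lowest, which covers counting error only, was 4.80 to 18.4 counts. Celf1 AKO held 10.8% of the control mean (0.79 ± 0.76 against 7.34 ± 1.79 CPM). The log2 fold change was -3.22 (SE 0.69, edgeR adjusted p = 0.227), and -3.04 (SE 0.81, adjusted p = 0.0894) without Celf1 AKO 3. Its size rests in part on single libraries, at -4.27 without Celf1 AKO 1 and -2.74 without Celf1 AKO 2, and on the scale, at -1.47 with limma on log2(FPKM + 1), where the added 1 FPKM exceeds the knockout level.

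Among the knockout libraries the order of Slc27a2, lowest in Celf1 AKO 2 and highest in Celf1 AKO 1, was also that of Ucp1. Ucp1 was at 79.6, 4.86 and 34.0 CPM in Celf1 AKO and at 461, 567 and 495 CPM in Flox control 1, 2 and 3. In the controls the order was reversed: Slc27a2 was highest in Flox control 1 and lowest in Flox control 2, and Ucp1 the opposite. Of the 4 Slc27a genes compared, Slc27a2 was the lowest in the knockout libraries. Slc27a1, the fatty acid transporter of fat and muscle, was the most abundant of them at 515 ± 179 FPKM in Celf1 AKO and 631 ± 89.3 FPKM in Flox control, and its log2 fold change was -0.29 (SE 0.27, edgeR adjusted p = 0.671), and -0.52 without Celf1 AKO 3 (adjusted p = 0.287). An antisense gene, Gm26697, shares 419 exon bases with Slc27a2. Since the strand setting is not given in the sources used here, reads of the pair cannot be told apart.

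Among the genes that act on ions or membrane potential, Kcnk3 encodes a 2-pore potassium channel (K2P) that sets the resting potential of cells, brown and beige adipocytes among them. Kcnk3 (ENSMUSG00000049265; chromosome 5, 30588170 to 30625271, plus strand) was at 124, 108 and 191 CPM in Celf1 AKO and at 224, 169.5 and 213 CPM in Flox control. Celf1 AKO 1 and 2 lay below every control, a pattern seen in 5 of the 9 markers and in 22.6% of all genes tested, whereas Celf1 AKO 3 lay within the control range. Celf1 AKO held 69.8% of the control mean with all libraries and 57.3% without Celf1 AKO 3. The log2 fold change was -0.52 (SE 0.23, edgeR adjusted p = 0.395) with all libraries and -0.81 (SE 0.16, adjusted p = 0.0483) without that library. The call of Kcnk3 thus depends on whether the library with muscle RNA is kept. Kcnk3 had 78.5% of the summed FPKM of the 6 Kcnk genes compared (Kcnk1, Kcnk2, Kcnk3, Kcnk5, Kcnk6 and Kcnk13) in Celf1 AKO and 84.1% in Flox control. Gm9899, on the other strand, shares 229 exon bases with Kcnk3 and had 439 counts over all libraries. Kcnk1, far less abundant, was higher in the knockout libraries with no overlap, as were 7.81% of all genes, at 1.52 ± 0.60 against 0.57 ± 0.12 FPKM. Its log2 fold change was 1.40 (SE 0.36, edgeR adjusted p = 0.252), and 1.14 without Celf1 AKO 3. In that fit the other Kcnk genes, named after their values were seen, went both ways. Kcnk5 was called lower at -1.43 (edgeR adjusted p = 0.0373), Kcnk13 was at -1.08, Kcnk6 at -0.46 and Kcnk2 at 1.10 (adjusted p = 0.0508).

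Otop1 encodes otopetrin 1, a proton channel known from sour taste cells and the inner ear and used as a beige marker. Otop1 (ENSMUSG00000051596; chromosome 5, 38275972 to 38304217, plus strand) was at 14.7, 11.7 and 1.49 CPM in Celf1 AKO and at 14.4, 18.4 and 11.95 CPM in Flox control. A single library, Celf1 AKO 3, was low, and the other 2 knockout libraries lay at or near the control range. Its log2 fold change was -0.69 (SE 0.67, edgeR adjusted p = 0.690), and -0.18 (SE 0.21, adjusted p = 0.660) without Celf1 AKO 3, where the mean of the remaining knockouts was 88.2% of the control. Without Celf1 AKO 1 it was -1.15.

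Tbx1, a T-box transcription factor best known from pharyngeal development, is used as a marker that beige cells have and classical brown cells lack. Tbx1 (ENSMUSG00000009097; chromosome 16, 18580979 to 18590671, minus strand) was at 1.26, 0.131 and 1.12 CPM in Celf1 AKO and at 2.37, 2.85 and 2.19 CPM in Flox control. The groups did not overlap, and Celf1 AKO 2 was far below every other library. Its raw counts were 69, 8 and 73 against 138, 193 and 143, and the exact 95% Poisson interval of the lowest was 3.45 to 15.8 counts. Celf1 AKO held 33.9% of the control mean, a log2 fold change of -1.56 (SE 0.66, edgeR adjusted p = 0.378), and -1.85 (SE 0.77, adjusted p = 0.214) without Celf1 AKO 3. With limma on log2(FPKM + 1) it was -0.72, the controls themselves being near 1 FPKM. Of the 6 T-box genes compared, those at the highest FPKM were Tbx15 and Tbx3, both known from white and brown preadipocytes. Tbx15 was at 9.33 ± 2.54 FPKM in Celf1 AKO and 8.42 ± 0.36 FPKM in Flox control, a log2 fold change of 0.15 (SE 0.17, edgeR adjusted p = 0.730), and Tbx3 was at 9.25 ± 1.58 and 6.05 ± 1.28 FPKM, a log2 fold change of 0.61 (SE 0.20, adjusted p = 0.302). Without Celf1 AKO 3 these were -0.06 for Tbx15 and 0.50 for Tbx3.

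Tmem26, which encodes a membrane protein used to sort beige precursors, showed no separation of the groups. Tmem26 (ENSMUSG00000060044; chromosome 10, 68723646 to 68782650, plus strand) was at 6.15, 1.997 and 3.24 CPM in Celf1 AKO and at 3.58, 2.85 and 4.82 CPM in Flox control. The highest and the lowest of the 6 values were both knockout libraries. The means were 3.80 ± 2.13 and 3.75 ± 0.996 CPM and the log2 fold change was 0.02 (SE 0.42, edgeR adjusted p = 0.991), so a difference in either direction was not resolved. It was 0.11 (adjusted p = 0.913) without Celf1 AKO 3. Its sign depended on the libraries used, at -0.48 without Celf1 AKO 1, -0.15 without Flox control 2 and -0.02 without Flox control 1.

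Eva1a encodes a membrane protein of lysosomes and the endoplasmic reticulum that acts in autophagy. Its name is close to that of Eva1, a marker of brown and beige fat cells that is now called Mpzl2, and in the RefSeq gene table Eva1 is a synonym of Mpzl2 and not of Eva1a. Eva1a (ENSMUSG00000035104; chromosome 6, 82041043 to 82093099, plus strand) was at 5.59, 6.27 and 5.61 CPM in Celf1 AKO and at 6.35, 4.74 and 3.35 CPM in Flox control. The knockout values all lay within the control range. Its log2 fold change was 0.28 (SE 0.26, edgeR adjusted p = 0.680) and 0.30 without Celf1 AKO 3. The controls moved it more, to 0.07 without Flox control 3 and 0.52 without Flox control 1. Mpzl2, named for this reason after its values were seen, was at 19.7, 31.4 and 29.1 CPM in Celf1 AKO and at 38.1, 29.4 and 36.9 CPM in Flox control. The groups overlapped, and the log2 fold change was -0.38 (SE 0.19, edgeR adjusted p = 0.454), and -0.45 without Celf1 AKO 3. Of the genes named Eva1, Eva1c was at 6.02 ± 1.499 FPKM in Celf1 AKO and 2.61 ± 1.01 FPKM in Flox control with no overlap in CPM, a log2 fold change of 1.21 (SE 0.36, edgeR adjusted p = 0.293), and of 1.39 without Celf1 AKO 3. An antisense gene shares 86 exon bases with Eva1a, and the strand of its reads is unknown here.

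**Figure D3:**
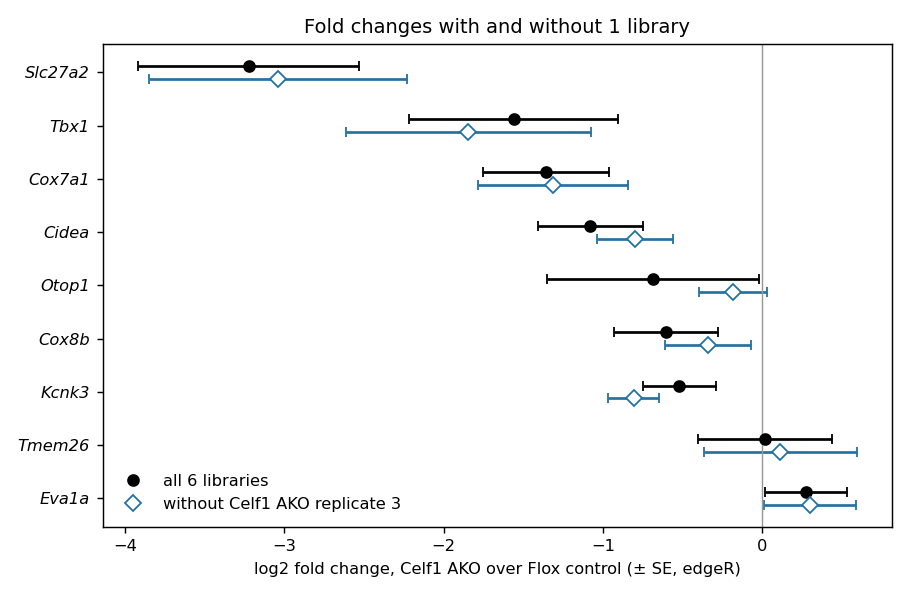
Log2 fold change of Celf1 AKO over Flox control from edgeR for the 9 beige marker genes, with bars of ± 1 SE, on all 6 libraries (filled) and without Celf1 AKO 3 (open). Slc27a2 lies furthest from 0 at -3.22, the fit without Celf1 AKO 3 moves Otop1 from -0.69 to -0.18 and Kcnk3 from -0.52 to -0.81, and Eva1a and Tmem26 lie near 0.

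The knockout libraries did not share 1 pattern over the markers. As a percentage of the control mean, Celf1 AKO 1 held 70.2% of Cidea, 56.7% of Cox7a1, 71.1% of Cox8b, 22.3% of Slc27a2, 61.3% of Kcnk3, 98.2% of Otop1, 116% of Eva1a, 164% of Tmem26 and 50.9% of Tbx1. Celf1 AKO 2 held 45.2% of Cidea, 23.9% of Cox7a1, 87.1% of Cox8b, 2.23% of Slc27a2, 53.2% of Kcnk3, 78.2% of Otop1, 130.3% of Eva1a, 53.2% of Tmem26 and 5.31% of Tbx1. Celf1 AKO 3 held 26.6% of Cidea, 36.3% of Cox7a1, 39.1% of Cox8b, 7.75% of Slc27a2, 94.7% of Kcnk3, 9.99% of Otop1, 117% of Eva1a, 86.4% of Tmem26 and 45.5% of Tbx1. Of all 6 libraries the lowest value was in Celf1 AKO 2 for 5 markers (Cox7a1, Slc27a2, Kcnk3, Tmem26 and Tbx1), in Celf1 AKO 3 for 3 (Cidea, Cox8b and Otop1) and in Flox control 3 for Eva1a. The highest was in Flox control 1 for 6 markers, in Flox control 2 for Otop1 and Tbx1, and in Celf1 AKO 1 for Tmem26. Between the highest and lowest knockout library Slc27a2 differed 10.01-fold, Otop1 9.83-fold and Tbx1 9.59-fold, while in the controls these ratios were 1.64, 1.54 and 1.302. Eva1a was the most even marker in the knockout, with a ratio of 1.12.

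**Figure D4:**
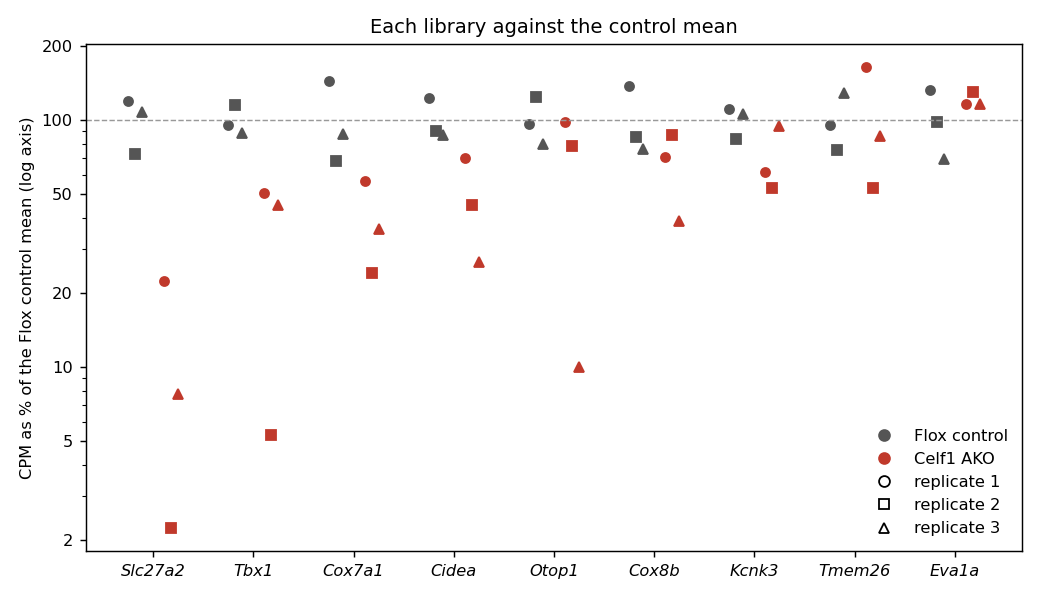
Level of each of the 9 beige marker genes in each Celf1 AKO library as a percentage of the Flox control mean in CPM, on a log axis, with the 3 control libraries shown the same way, points shaped by replicate number and a dashed line at 100%. Slc27a2 in Celf1 AKO 2 is at 2.23% and Tbx1 there at 5.31%, Celf1 AKO 3 is lowest for Cidea, Cox8b and Otop1, and Eva1a is above 100% in all 3 knockout libraries.

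The genes whose profiles over the 6 libraries were nearest to each marker were found by the root mean square difference in log2 CPM after centring each gene on its mean, as a description of 6 libraries. Slc27a2 had no close neighbour: the nearest was Dio2, the deiodinase that activates thyroid hormone in brown and beige fat, at 0.64, followed by Pank1 and Adcy3. Tbx1 was nearest to Cpt1b, the carnitine palmitoyltransferase of muscle and brown fat, at 0.21. Cidea was nearest to Tmem45b at 0.19, Cox8b to Rsph3a at 0.16, Cox7a1 to Il1rl1 at 0.25 and Otop1 to Irx1 at 0.38. The profiles of Kcnk3, Eva1a and Tmem26, which varied less, had nearer neighbours in Psma1 at 0.04, Dcbld1 at 0.09 and Ifi206 at 0.10. Among the markers themselves the nearest pairs were Cidea with Cox8b at 0.39 and Cidea with Cox7a1 at 0.40.

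A list of 28 other thermogenic and beige genes, Ucp1 included, gave the wider pathway. Of these, 18 had a negative and 10 a positive log2 fold change, with a median of -0.23, and none was called by edgeR on all libraries. At an unadjusted p under 0.05, 12 were lower and 2 higher, beside 6.17% and 6.75% of all genes. With no overlap of the groups, 9 were lower and 0 higher, beside 9.51% and 7.81% of all genes. Without Celf1 AKO 3 edgeR called 6 of them lower and 0 higher, beside 1.76% and 1.43% of all genes, with a median of -0.39. DESeq2 on all libraries called 6 lower and 1 higher, beside 0.926% and 2.12% of all genes. Acot11, the brown fat thioesterase, was at 4.605, 5.81 and 5.87 CPM in Celf1 AKO and 13.2, 11.7 and 11.2 CPM in Flox control, a log2 fold change of -1.15 (SE 0.18, edgeR adjusted p = 0.215), and of -1.21 without Celf1 AKO 3 (adjusted p = 0.0300). Letmd1, a mitochondrial protein needed for brown fat heat production, ranged over 52.9 to 55.5 CPM against 79.2 to 87.7 CPM, with log2 fold change -0.61 (SE 0.09, edgeR adjusted p = 0.215), and -0.62 without Celf1 AKO 3 (adjusted p = 0.0360). Nrg4, a hormone-like factor secreted by brown fat, ranged over 76.2 to 85.3 CPM against 117 to 144 CPM, with log2 fold change -0.70 (SE 0.12, edgeR adjusted p = 0.215), and -0.76 without Celf1 AKO 3 (adjusted p = 0.0352). These 3 genes varied less between the knockout libraries than Cidea, Slc27a2 or Tbx1 did. They were named for their small p, which itself favours genes that vary little between libraries.

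Dio2 was at 32.9, 4.94 and 19.9 CPM in Celf1 AKO and 69.1, 144 and 155 CPM in Flox control, a log2 fold change of -2.67 (SE 0.64, edgeR adjusted p = 0.251), and of -2.70 without Celf1 AKO 3 (adjusted p = 0.111). Plin5, a lipid droplet protein of oxidative tissues, ranged over 24.7 to 55.3 CPM against 80.0 to 85.7 CPM, with log2 fold change -1.13 (edgeR adjusted p = 0.251), and -1.52 without Celf1 AKO 3 (adjusted p = 0.0174). Not all of the list was lower. Ppargc1a, the coactivator that drives mitochondrial biogenesis, was at 186, 80.4 and 74.7 CPM in Celf1 AKO against 52.4 to 79.3 CPM in Flox control, with overlap, a log2 fold change of 0.85 (SE 0.36, edgeR adjusted p = 0.380), and of 1.08 without Celf1 AKO 3. Fgf21, a hormone of the cold response, was at 2.60, 7.68 and 0.645 CPM against 0.275 to 1.17 CPM, also with overlap, and had a log2 fold change of 2.61 (SE 0.92, edgeR adjusted p = 0.326), and of 3.11 without Celf1 AKO 3.

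Markers of other cells also differed between the libraries. All 9 Schwann cell markers tested were higher in the knockout with no overlap of the groups, and their summed level was 551 to 794 CPM in Celf1 AKO and 345 to 425 CPM in Flox control. Of 12 endothelial markers, 11 had a positive log2 fold change and 7 were higher without overlap, with sums of 1274 to 1535 CPM against 759 to 1138 CPM. All 8 neutrophil markers had a positive log2 fold change, 2 of them without overlap, with sums of 33.5 to 128 CPM against 7.15 to 23.1 CPM. The neutrophil median was 2.46, and 1.003 without Celf1 AKO 3, while the Schwann cell median was 0.92 and 0.78 and the endothelial median 0.60 and 0.57. All 6 mammary and other epithelial markers tested were positive, 2 without overlap, with a median of 1.34 and sums of 9.17 to 31.3 CPM against 5.25 to 9.80 CPM, and without Celf1 AKO 3 all 8 then tested were positive, with a median of 1.64. The gene Ltf is in both this list and that of the neutrophils, so the 2 lists are not separate. All 6 erythrocyte markers were positive, 0 without overlap, with sums of 557 to 1271 CPM against 351 to 588 CPM and a median of 0.87, or 0.38 without Celf1 AKO 3. Of 10 macrophage markers 9 were negative, with a median of -0.12 and sums of 676 to 1939 CPM against 1237 to 1722 CPM. The lists of smooth muscle cells and pericytes, of preadipocytes and fibroblasts and of B and T cells had medians of 0.25, -0.10 and 0.05, or of 0.09, 0.02 and 0.03 without Celf1 AKO 3. A shift to higher values without overlap was seen for 7.81% of all genes. None of these markers was called by edgeR on all libraries. Without Celf1 AKO 3, 1 endothelial, 1 Schwann cell and 1 epithelial marker were called higher by edgeR, beside 1.43% of all genes. DESeq2 on all 6 libraries called 5 Schwann cell, 3 endothelial and 1 epithelial marker higher, beside 2.12% of all genes. Of 14 mature adipocyte markers 9 were negative and 5 positive, with a median log2 fold change of -0.07 by edgeR on all libraries. On that scale the median was -0.69 for the 9 beige markers and -0.02 for all genes. After scaling each library to those adipocyte markers, which evens out their mean by design, these 2 medians were -0.62 and 0.04. The part of the other cell types and of the muscle RNA in the levels of the beige markers was not tested.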

How the data were processed

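The data were mRNA sequencing libraries from inguinal fat of 3 Celf1 AKO and 3 Flox control samples. Per the labels' protocols, RNA was extracted with Trizol and libraries were made from fragmented mRNA by cDNA synthesis, adaptor ligation, PCR and circularization. HISAT2, RSEM 1.3.1, GRCm38 and mm10 are named in the submitters' processing notes. The role of each, the annotation and the strand setting were not given in the sources used here. The deposited table of counts gives whole numbers per gene, not normalized, and the authors also deposited FPKM of the same genes. Tested on the values, each FPKM is the count divided by a length per gene and a factor per library, which in Celf1 AKO 3 was 0.982% larger than its total count, relative to Flox control 3. Every gene in the table had at least 53 counts in all, and 16528 of 16627 identifiers matched GENCODE M21, the source of names and positions.

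The 9 genes and all gene lists were chosen with earlier results of these data known, as was the rule for naming genes: all 9, their most abundant paralogs, Celf1, Ucp1, the 6 genes of smallest p and the 2 of smallest p with a positive fold change in the thermogenic list, the 2 of smallest p in other lists, and the 3 nearest profiles per marker (mean of at least 1 CPM). Adipoq, Mb, Tbx3 and the genes said to be named after their values were seen fall outside it. Counts as deposited were tested with edgeR 4.0.16 in R 4.3.3 (quasi-likelihood, TMM, default expression filter, robust), with genotype as the only term, and p-values were adjusted by Benjamini-Hochberg over 16366 genes. The filter removed 261 genes and kept all 9. CPM values are scaled by TMM, errors are SDs over libraries, and SE is the log2 fold change over the root of F. Profiles used log2(CPM + 0.5). At 1 CPM a library held about 54.8 to 65.0 counts before the TMM factor, and a gene's counts limit its precision. Isoform ratios were tested by exact permutation (two-sided). No pair of libraries agreed within sampling noise. Alternatives were DESeq2 1.42.0, other scalings (also to mature adipocyte markers) and filters, limma 3.58.1 on counts (voom) and on log2(FPKM + 1) and log2(FPKM + 0.1), the replicate block, and leaving out each library. The scripts were tested on simulated data. Promoter sequences came from RefSeq (GRCm38.p6).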

Additional observations from a re-analysis of the deposited data

How the results depend on the processing

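The number of the 9 markers called was 0 in each direction with edgeR on all libraries under every scaling and filter tried, with limma and with the replicate block. It was 2 lower with DESeq2 and between 0 and 1 lower when a library was left out, the 1 being Kcnk3 without Celf1 AKO 3. Over all genes, edgeR called 0 lower and 2 higher, DESeq2 151 and 345, edgeR without Celf1 AKO 3 290 and 237, and the replicate block 3 and 9. The median log2 fold change of the markers, -0.69, was -1.16 with limma on log2(FPKM + 0.1), where Tmem26 missed the minimum and 8 were left, -1.17 with limma-voom, -1.12 with the replicate block, and -1.15 to -0.71 when a library was left out. The cause was not tested. The sign of Tmem26 reversed in 6 settings: -0.015 with limma on log2(FPKM + 1) without a minimum, -0.11 with limma-voom, -0.10 with the replicate block, -0.48 without Celf1 AKO 1, -0.02 without Flox control 1 and -0.15 without Flox control 2. Leaving out 1 library at a time, it ran from -0.48 to 0.32. The other 8 markers kept their sign in every setting. Leaving out 1 library at a time, their log2 fold changes ran from -1.44 to -0.80 for Cidea, -1.69 to -1.002 for Cox7a1, -0.86 to -0.30 for Cox8b, -4.27 to -2.74 for Slc27a2, -0.81 to -0.36 for Kcnk3, -1.15 to -0.18 for Otop1, 0.07 to 0.52 for Eva1a and -1.93 to -1.05 for Tbx1. With limma on log2(FPKM + 1), Slc27a2 was at -1.47 and Tbx1 at -0.72. The log2 difference of the Cox7a1 to Cox7a2 ratio ran from -1.54 to -0.96 and that of Cox8b to Cox8a from -0.76 to -0.38 when a library was left out (exact permutation p = 0.2, the smallest 2 against 3 allows), and the paired sign-flip test gave an exact p of 0.25, the smallest for 3 pairs. The sources used here do not say whether the replicate numbers pair the samples, and so few libraries cannot settle it. Deviations of same-numbered libraries correlated at 0.0936, -0.0673 and 0.197. Celf1 AKO 1 and Celf1 AKO 3 correlated best with the control of their own number, and Celf1 AKO 2 with Flox control 1 (0.246). For Slc27a2 and Tbx1, counts as low as 10 and 8 limit the precision in Celf1 AKO 2.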

Other observations

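Genes that white fat expresses above brown fat did not move together opposite to the beige markers. Of 13 tested, 8 had a negative and 5 a positive log2 fold change, with a median of -0.07, and none was called by edgeR. At an unadjusted p under 0.05, 1 was lower and 1 higher, beside 6.17% and 6.75% of all genes. Agt, the precursor of angiotensin, was at 17.0, 106 and 129 CPM in Celf1 AKO and at 23.3, 17.7 and 28.2 CPM in Flox control, a log2 fold change of 1.86 (edgeR adjusted p = 0.314), and of 1.41 without Celf1 AKO 3. Lep, the satiety hormone leptin, was at 41.1, 165 and 101 CPM in Celf1 AKO and at 142, 568 and 297 CPM in Flox control, a log2 fold change of -1.71 (edgeR adjusted p = 0.324), and of -1.70 without Celf1 AKO 3. For both genes the groups overlapped. Agt was highest in the 2 knockout libraries in which Cidea was lowest. In Celf1 AKO 1, however, both Agt (17.0 CPM) and Cidea (102 CPM) were below every control.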
